A study of Ceratotherium simum simum with 6 samples.

Results

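The insulin-like growth factor (IGF) binding proteins and the secreted serine protease HTRA1 were followed at the level of their transcripts in granulosa cells of the southern white rhinoceros (Ceratotherium simum simum). The 8 genes were taken by name, as IBP1 to IBP7 (the UniProt-style entry names of IGFBP1 to IGFBP7) and HTRA1, from 22569 named genes of the assembled transcriptome. All 8 names were present. Granulosa cells are the somatic cells around the oocyte. RNA-seq libraries came from 2 animals, rhino 1 and rhino 2, with 3 libraries each. Both animals have the same labels, which are wild type, an in vivo origin and a time before IVM (in vitro maturation), and no agent or age is given. With 1 animal per group, a difference between the animals cannot be told apart from a difference in collection or handling.

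IGF binding proteins hold IGF-I and IGF-II outside the cell and set how much of either reaches the IGF receptor. Proteases such as the pappalysins cut the binding proteins and release the ligand. In the follicles of cattle, sheep and pigs, binding proteins of low molecular weight decline in the fluid as a follicle becomes dominant. IBP7 binds IGFs only weakly and is a protein of the extracellular matrix and of blood vessel walls. HTRA1 carries an IGFBP-type module at its N-terminus and has been reported to cut IGFBP5.

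The libraries held between 672410 and 13288936 counts, with rhino 1 replicate 1 the deepest. In that library 94.5% of the counts lay on named gene models, against 2.31% to 2.61% in the other 5, whose counts lay mostly on unnamed models of the opposite strand. Counts of both strands were therefore summed per locus, and levels are CPM, the counts of a locus divided by the library total and multiplied by 1000000. A locus with 0 counts allows at most 0.226 CPM in rhino 1 replicate 1, and 1.97 to 4.46 CPM elsewhere, by counting error alone. Zeros beyond counting error also occurred. In rhino 1 replicate 2, 473 of 5123 named loci modelled on both strands stood at 0 where at least 20 counts were predicted. In rhino 2 replicate 2 this held for 251 of 5296. Predictions came from the mean level in the rest of the libraries, so a loss and a real difference cannot be told apart. All 10 granulosa markers had counts, with a summed level of 15379 to 24043 CPM in rhino 1 and 12253 to 17618 CPM in rhino 2. Within that list the aromatase gene CP19A had 892 to 3418 CPM in rhino 1 and 180 to 260 CPM in rhino 2 (log2 fold change -3.34, edgeR adjusted p = 0.0536), and MIS, the gene of anti-Mullerian hormone, had 78.4 to 90.7 and 292 to 433 CPM (2.16, edgeR adjusted p = 0.0192, past the threshold). The part of these differences in those of the binding proteins was not tested. The theca list had 4 matched genes. Of these, the luteinising hormone receptor gene LSHR had 56.5 to 180 CPM in rhino 1 and 21.3 to 38.0 CPM in rhino 2. The cholesterol transporter gene STAR had 0 to 12.4 and 8.53 to 58.4 CPM. Whether LSHR and STAR came from theca or granulosa cells was not tested. The theca markers CP17A and INSL3 and 7 of 8 oocyte markers were at 0, but these loci have no opposite-strand model, so only rhino 1 replicate 1 bears on them.

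The binding protein genes lay in pairs and as single loci in the scaffold coordinates of the deposited table. IBP5 (scaffold 37, 21112355 to 21128164, plus strand) and IBP2 (scaffold 37, 21138947 to 21164005, minus strand) stood tail to tail with 10782 bases between them. IBP3 (scaffold 1, 108241534 to 108247374, plus strand) and IBP1 (scaffold 1, 108257541 to 108261857, minus strand) stood tail to tail with 10166 bases between them. The RefSeq gene table of the species (assembly ASM5780239v1, a build not shown to be that of the files) also lists IGFBP5 beside IGFBP2 and IGFBP1 beside IGFBP3. IBP4 lay on scaffold 16 (39934341 to 39945420, plus strand), IBP6 on scaffold 17 (16457663 to 16460994, minus strand), IBP7 on scaffold 8 (44663300 to 44741762, minus strand) and HTRA1 on scaffold 6 (10888274 to 10914649, minus strand).

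The named models of IBP2 to IBP6 had 4 exons each, that of IBP7 had 5, and that of HTRA1 had 3. Their exonic lengths ran from 714 bases for IBP6 to 1235 bases for IBP4. All members except IBP1 also had an opposite-strand model. It shared every intron of the named model for IBP2, IBP3, IBP4, IBP6, IBP7 and HTRA1, but only 1 of 3 for IBP5, whose opposite model covered 422 bases in 2 exons. The IBP5 counts of rhino 1 replicates 2 and 3 and rhino 2 replicate 1 all lay on this short model. Another locus named HTRA1 (scaffold 34, 27126066 to 27157014), with 324 exonic bases, had 0 counts in every library and no opposite-strand model, and was not added to HTRA1.

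**Figure D1:**
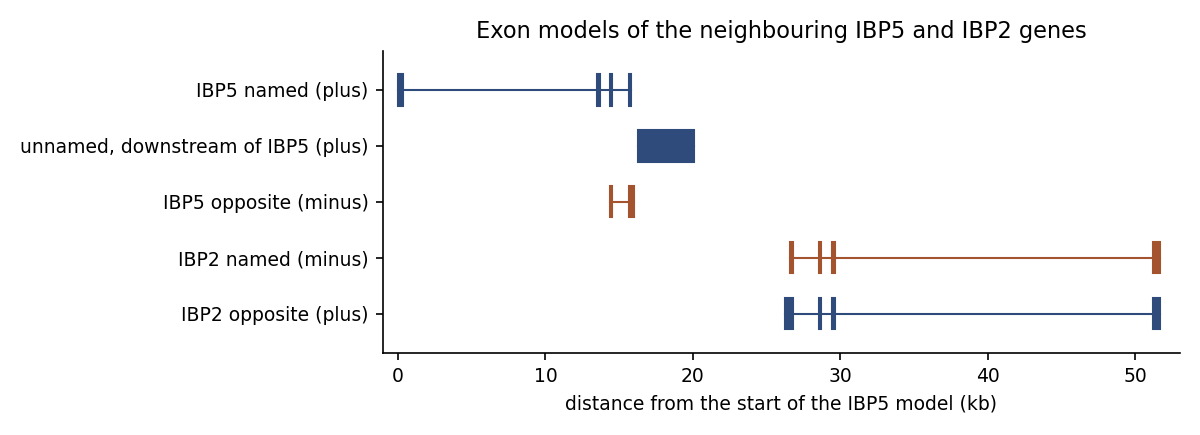
Exon models at the neighbouring IBP5 and IBP2 loci, drawn to scale by distance along the scaffold. The plus strand is in blue and the minus strand in brown. The named models stand tail to tail, and the opposite-strand model of IBP5 covers only the end of the gene. An unnamed model lies downstream of IBP5 on the same strand.

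IBP7 had the highest mean level of the family in each animal, although IBP2 stood above it in rhino 1 replicate 2, and it had higher levels in all libraries of rhino 2 than anywhere in rhino 1. Its level was 171, 159 and 268 CPM in replicates 1, 2 and 3 of rhino 1, and 887, 441 and 768 CPM in those of rhino 2. The animals did not overlap, and the lowest library of rhino 2 stood above the highest of rhino 1 with 95% Wilson intervals of 394 to 492 and 243 to 296 CPM. The means were 199.6 ± 59.9 and 698 ± 231 CPM (SD, n = 3 each). The log2 fold change, rhino 2 over rhino 1, was 1.90 (SE 0.34), and edgeR's quasi-likelihood test gave an adjusted p of 0.0677 with a threshold of 0.05, so the difference did not pass. It passed by DESeq2 (1.88, adjusted p = 4.3e-06), by limma-voom (1.92, adjusted p = 0.0090), by edgeR with no filter on low counts (1.88, adjusted p = 0.0023) and by edgeR on loci modelled on both strands (1.91, adjusted p = 0.0405). With each library left out in turn, the log2 fold change stayed between 1.70 and 2.16 and edgeR's adjusted p between 0.0861 and 0.299.

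The neighbour of IBP7 on the other strand is RPB2, which encodes a subunit of RNA polymerase II, with 342 bases between the named models. In rhino 1 replicate 1, 186 of the 2275 counts of IBP7 (8.18%) lay on its opposite-strand model, where the other 5 libraries had all of theirs. Markers of vessel walls were read beside IBP7 because the protein is known from them. The endothelial kinase gene TIE2 had 99.6, 78.8 and 57.3 CPM in rhino 1, compared with 165, 257 and 195 CPM in rhino 2, and the smooth muscle myosin gene MYH11 had 258, 112 and 193 CPM against 900, 526 and 736 CPM. Both were higher in each library of rhino 2, as IBP7 was, and neither passed edgeR's threshold (adjusted p = 0.0892 and 0.0737). The other counted genes of the smooth muscle and pericyte list had negative log2 fold changes, and none passed. CNN1 was lower in each library of rhino 2, at 76.9, 149 and 78.7 CPM against 17.1, 14.2 and 24.1 CPM. RGS5, a pericyte gene, had 10.4, 80.3 and 55.9 CPM against 15.7, 7.11 and 9.27 CPM (log2 fold change -2.03), and the smooth muscle actin gene ACTA had a log2 fold change of -5.69.

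Of the 7 endothelial markers 3 had counts, with a sum of 57.3 to 105 CPM in rhino 1 and 169 to 257 CPM in rhino 2, nearly all of it TIE2. PECA1 and VWF, which have opposite-strand models, were near 0. PECA1 had 1.35 CPM in rhino 1 replicate 1 and 0 elsewhere. VWF had 3.76 CPM in rhino 1 replicate 1, 3.94 CPM in rhino 2 replicate 1 and 0 elsewhere. CADH5, TIE1, VGFR2 and CLD5 were at 0 in all libraries. These 4 loci have no opposite-strand model, so only rhino 1 replicate 1, with TIE2 at 99.6 CPM and a limit of 0.226 CPM, bears on them. The smooth muscle list had 4 of 5 matched markers with counts, DESM being at 0, and summed to 385 to 2632 CPM in rhino 1 and 588 to 942 CPM in rhino 2. The part of these markers in the level of IBP7 was not tested. In bulk RNA, fewer cells of a type and less RNA per cell cannot be told apart.

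IBP2, a high-affinity binding protein with a preference for IGF-II, had the second highest mean level. Its level was 37.6, 213 and 66.2 CPM in rhino 1, compared with 353, 206 and 387 CPM in rhino 2. The animals overlapped, because rhino 1 replicate 2 stood above rhino 2 replicate 2, and the intervals of these libraries, 181 to 250 and 175 to 242 CPM, overlapped too. The means were 105.5 ± 93.9 and 315 ± 96.1 CPM (SD, n = 3 each). The log2 fold change was 1.75 (SE 0.62, edgeR adjusted p = 0.284) and did not pass. It was 2.67 when rhino 1 replicate 2 was left out (adjusted p = 0.109), and leaving out rhino 1 replicate 1 gave 1.36 (adjusted p = 0.303). By limma-voom (2.52, adjusted p = 0.0177) and by edgeR with no filter (1.75, adjusted p = 0.0388) IBP2 passed.

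HTRA1 was the most even member. Its level was 88.4, 90.7 and 69.0 CPM in rhino 1, compared with 135, 126 and 118 CPM in rhino 2. Each library of rhino 2 stood above each of rhino 1, although the counting interval of rhino 1 replicate 2, 70.6 to 117 CPM, reached that of the lowest library of rhino 2, 99.0 to 140 CPM. The means were 82.7 ± 11.9 and 126 ± 8.38 CPM (SD, n = 3 each), a log2 fold change of 0.71 (SE 0.21) that did not pass by edgeR (adjusted p = 0.202) or by DESeq2 (adjusted p = 0.0502). It ran from 0.58 to 0.80 with single libraries left out.

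**Figure D2:**
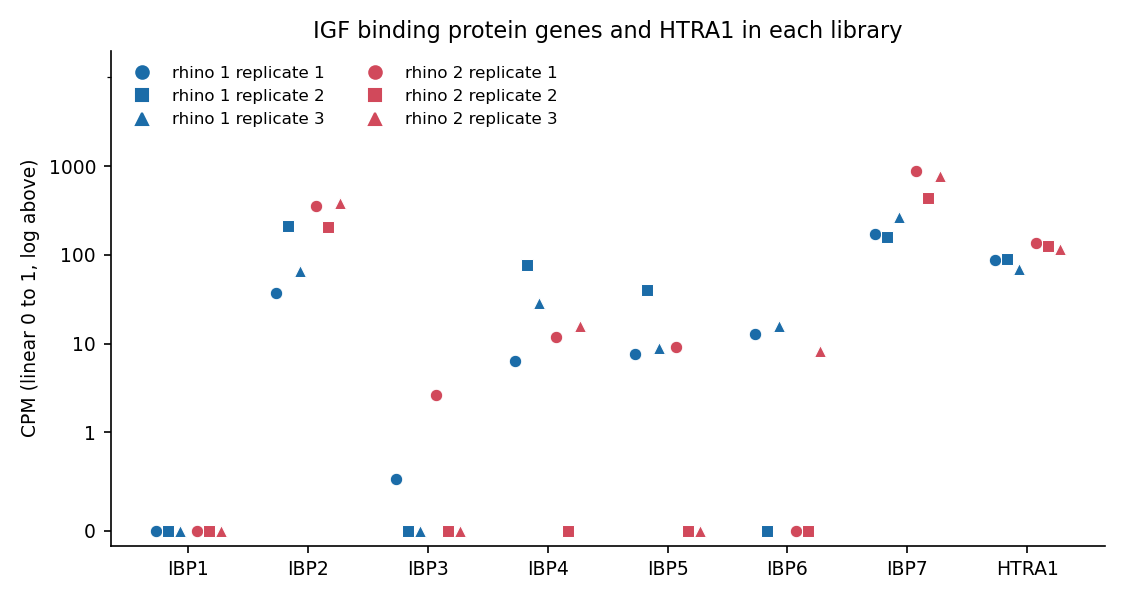
Level of each member in every library, in CPM on an axis that is linear from 0 to 1 and logarithmic above, with 1 point per library, rhino 1 in blue and rhino 2 in red. IBP7 and HTRA1 separate the animals, IBP2 overlaps through the 213 CPM of rhino 1 replicate 2, and IBP4, IBP5 and IBP6 have libraries at 0.

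IBP4, which restrains IGF action and is a substrate of the pappalysin PAPP-A, was low and uneven. It had 6.40, 77.3 and 29.0 CPM in rhino 1, from 85, 52 and 42 counts, and 11.8, 0 and 15.8 CPM in rhino 2, from 18, 0 and 17 counts. Rhino 1 replicate 2 (interval 59.0 to 101 CPM) and replicate 3 (21.4 to 39.2 CPM) had higher levels than all of rhino 2, although the interval of replicate 3 overlapped that of rhino 2 replicate 3 (9.84 to 25.2 CPM), and rhino 1 replicate 1 lay below 2 of the libraries of rhino 2. For the 0 of rhino 2 replicate 2, the rest of the libraries predicted 19.7 counts. The log2 fold change was -1.84 (SE 1.35, edgeR adjusted p = 0.734). It was -0.84 without rhino 1 replicate 2 and -2.32 without rhino 1 replicate 1 (adjusted p = 0.475), and passed in no fit that gave it an adjusted p.

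IBP5, a matrix-bound binding protein that marks the granulosa cells of atretic follicles in the rat, had 7.60, 40.2 and 8.97 CPM in rhino 1, compared with 9.19, 0 and 0 CPM in rhino 2. Rhino 1 replicate 2 was the high library, with an interval of 27.6 to 58.4 CPM, and the only library of rhino 2 with counts lay within the range of rhino 1. Where rhino 2 had 0 counts, the other libraries predicted 9.28 counts in replicate 2 and 14.2 in replicate 3. The log2 fold change was -2.39 (SE 1.82, edgeR adjusted p = 0.744), and -1.32 without rhino 1 replicate 2. IBP5 and IBP6 did not pass the filter on low counts, and were not tested, when rhino 1 replicate 1 or rhino 1 replicate 3 was left out, nor did IBP5 when rhino 2 replicate 1 was left out.

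IBP6, which prefers IGF-II, had 12.9, 0 and 15.9 CPM in rhino 1, compared with 0, 0 and 8.35 CPM in rhino 2. It was at 0 in replicate 2 of both animals and in rhino 2 replicate 1, where the rest of the libraries predicted at most 11.3 counts. The log2 fold change was -1.71 (SE 2.19, edgeR adjusted p = 0.919). Without rhino 2 replicate 3 the remaining libraries of that animal were both at 0, so the fitted change then, -8.09, is no bound. IBP3, the main carrier of IGFs in the circulation, had 7 counts in rhino 1 replicate 1 (0.527 CPM) and 4 in rhino 2 replicate 1 (2.62 CPM) and none elsewhere, and it was not tested. IBP1, which in humans is made by the liver and by luteinising granulosa cells, had 0 counts in all libraries. It has no opposite-strand model, so the limit of 0.226 CPM in rhino 1 replicate 1 is the one that applies, and nothing can be said of IBP1 in the other 5 libraries.

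Rhino 1 replicate 2, the library with the highest IBP4 and IBP5 of all and the highest IBP2 of rhino 1, also had the highest levels of several stromal, smooth muscle and epithelial genes. The collagen gene CO1A1 had 4.67, 2870 and 353 CPM in rhino 1 and 0 in all of rhino 2, and the proteoglycan gene PGS2 (decorin) had 0, 216 and 49.7 CPM against 0. ACTA, the smooth muscle actin gene, had 39.6, 2292 and 393 CPM in rhino 1, compared with 9.84, 41.2 and 0 CPM in rhino 2. Rhino 1 replicate 2 was by far the highest for each of the 3 genes and rhino 1 replicate 3 came next. Other stroma genes had counts in rhino 2. CO1A2 had 506, 2909 and 880 CPM in rhino 1 against 1094, 460 and 1178 CPM. CO3A1 had 168, 619 and 196 CPM against 148, 161 and 93.7 CPM, and PGFRA had 0, 8.92 and 5.52 CPM against 7.22, 0 and 0. In the smooth muscle list, CNN1 and RGS5 were also highest in rhino 1 replicate 2, whereas MYH11, at 112 CPM, was lowest there.

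Over the stroma list, 5 of 6 matched markers had counts, THY1 being at 0, and the sum was 679, 6622 and 1485 CPM in rhino 1 against 1249, 621 and 1271 CPM in rhino 2. The sum for smooth muscle in rhino 1 replicate 2 was 2632 CPM, against 385 to 942 CPM in the other 5 libraries. The epithelial list, with 4 of 5 markers counted and CADH1 at 0, summed to 692 CPM in rhino 1 replicate 2 and to 107 to 316 CPM elsewhere. Of its keratin genes, K1C18 reached 189 CPM there and 29.0 to 44.1 CPM elsewhere, and K2C8 reached 503 CPM there and 62.5 to 263 CPM elsewhere. The part of these markers in the levels of IBP2, IBP4 and IBP5 was not tested. Without rhino 1 replicate 2, the log2 fold change of IBP2 went from 1.75 to 2.67. That of IBP4 went from -1.84 to -0.84 and that of IBP5 from -2.39 to -1.32. Rhino 1 replicate 3, next highest for CO1A1, PGS2 and ACTA, stayed in that fit, so it does not test the part of the markers.

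**Figure D3:**
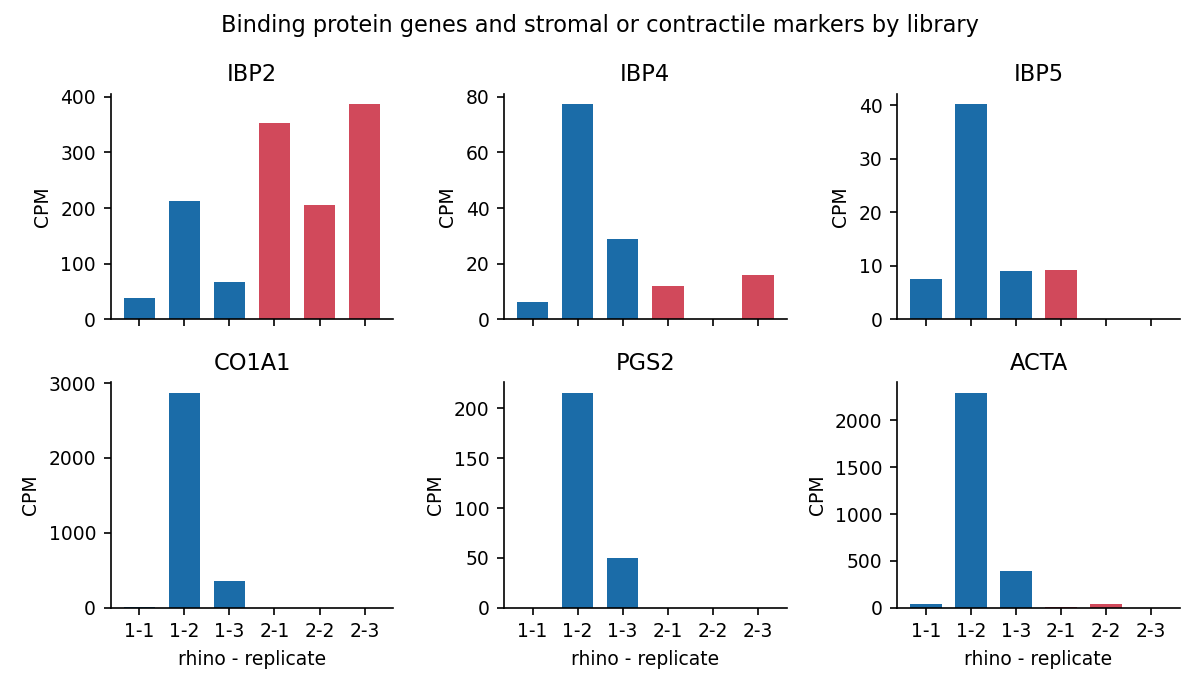
Levels of IBP2, IBP4 and IBP5 beside those of the stromal and smooth muscle genes CO1A1, PGS2 and ACTA, in CPM, with 1 bar per library labelled by animal and replicate. Rhino 1 replicate 2 is the highest library for IBP4, IBP5 and all 3 marker genes, with 2870 CPM of CO1A1.

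Levels were compared between genes per kilobase of exon, over the joined length of both strands. In rhino 2 the order was IBP7 (636 ± 210 CPM per kb), IBP2 (237 ± 72.2) and HTRA1 (119 ± 7.91), and none of these neighbours overlapped over the 3 libraries. IBP4 (4.31 ± 3.85), IBP6 (3.05 ± 5.29) and IBP5 (3.04 ± 5.27) followed at levels that overlapped one another. In rhino 1, IBP7 (182 ± 54.6) was followed by IBP2 (79.3 ± 70.6) and HTRA1 (78.0 ± 11.3). There IBP2, at 28.3 to 160 CPM per kb, overlapped both IBP7, at 145 to 244, and HTRA1, at 65.1 to 85.6. IBP5 (18.8 ± 18.3), IBP4 (17.6 ± 17.0) and IBP6 (10.5 ± 9.27) overlapped one another and lay below HTRA1 in every library. IBP3 averaged 0.0721 CPM per kb in rhino 1 and 0.359 in rhino 2.

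Divided instead by the length of the model on the strand that held the counts, a choice made after seeing the data, IBP5 had 9.31, 95.2 and 21.3 CPM per kb in rhino 1 and 21.8, 0 and 0 in rhino 2. In rhino 1 replicate 2 it then stood beside HTRA1, which had 98.0. Among the 22569 named genes, IBP7 ranked 309 by mean CPM, IBP2 788, HTRA1 1817, IBP4 5869, IBP5 7444, IBP6 8304 and IBP3 10981. These ranks take no account of length. They also favour genes modelled on both strands, as these members are. Only 10525 of the named genes have an opposite-strand model, and the rest were measured mainly in rhino 1 replicate 1.

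The mix of binding proteins was summarised as each gene's share of the summed per-kilobase level of IBP1 to IBP7. IBP7 made up 74.5%, 38.0% and 73.2% in rhino 1 and 74.2%, 72.1% and 69.5% in rhino 2. All libraries but rhino 1 replicate 2 lay close together, and that library stood apart, with 42.0% IBP2, 9.52% IBP4 and 10.5% IBP5. Elsewhere IBP2 made up 13.5% and 14.9% in rhino 1 and 24.4%, 27.9% and 28.9% in rhino 2. The IBP7 share averaged 61.9% ± 20.7 in rhino 1 and 71.9% ± 2.36 in rhino 2 (SD, n = 3 each, two-sided exact permutation p = 0.9). These shares use the joined length, which puts IBP5 in rhino 1 replicate 2 at 39.9 CPM per kb. By the length of the model that held its counts it is 95.2, beside 145 for IBP7, so its share there is larger. The mean IBP7 share over the 6 libraries is then 65.4%.

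The ratio of IBP7 to IBP2 was 5.51, 0.906 and 4.91 in rhino 1 and 3.04, 2.59 and 2.41 in rhino 2, so that the values of rhino 2 lay between those of rhino 1. The summed level was 209, 381 and 334 CPM per kb in rhino 1 and 1089, 556 and 1006 in rhino 2, with means of 308 ± 88.8 and 884 ± 287. The libraries of rhino 2 were all higher, with a two-sided exact permutation p of 0.1, the smallest that 3 against 3 libraries can give.

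**Figure D4:**
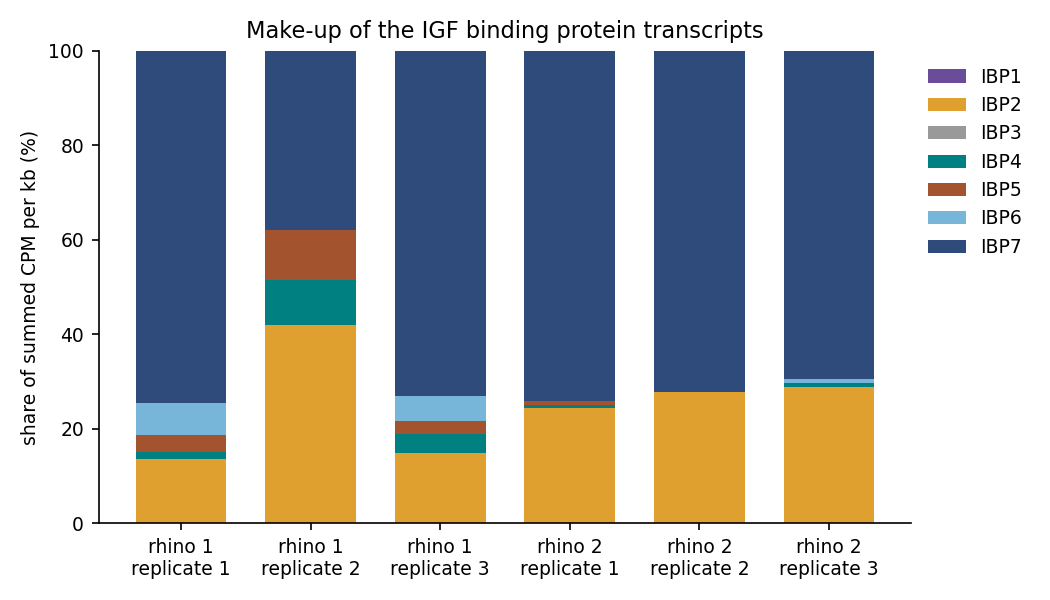
Share of each binding protein gene in the summed per-kilobase level of IBP1 to IBP7, in percent, with 1 stacked bar per library. Levels are per kilobase of the joined length of both strands. IBP7 takes 69.5% to 74.5% in 5 libraries and 38.0% in rhino 1 replicate 2, where IBP2, IBP4 and IBP5 take more.

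Between the animals, 6 of the 8 members had enough counts to be tested, and 0 passed edgeR's adjusted threshold, as 0.551% of all 8532 tested loci did in either direction. IBP7, IBP2 and HTRA1 had positive log2 fold changes and IBP4, IBP5 and IBP6 negative ones, with a median of -0.50, against 0.04 over all loci tested. At an unadjusted p under 0.05, 3 members were higher in rhino 2 (IBP7, IBP2 and HTRA1), as were 6.42% of all tested loci. None of the members was lower, against 6.48% of all tested loci. IBP7 and HTRA1 were the 2 members with every library of rhino 2 above every library of rhino 1, which held for 10.4% of all tested loci. By DESeq2, 1 member passed, higher in rhino 2, against 3.66% of all loci in that direction, while IBP4, IBP5 and IBP6 were among the 2488 of 8532 loci to which DESeq2 gave no adjusted p. By limma-voom 2 members passed, against 7.24%. With no filter 2 passed, against 0.961% of loci, and on loci modelled on both strands 1 did, again against 0.961%.

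**Figure D5:**
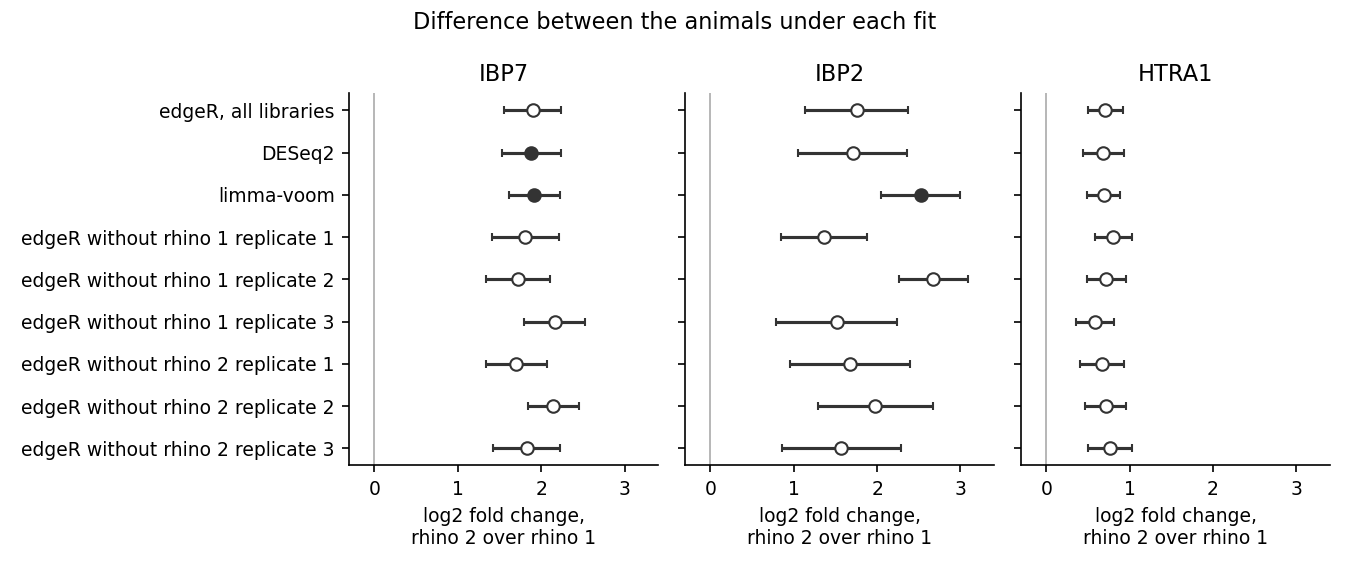
Log2 fold change, rhino 2 over rhino 1, of IBP7, IBP2 and HTRA1 by edgeR, DESeq2 and limma-voom on all libraries and by edgeR with each library left out, with bars of 1 SE to either side and filled points where the adjusted p was below 0.05. All values lie above 0, and the filled points are IBP7 by DESeq2 and limma-voom and IBP2 by limma-voom.

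By a rule of likeness, the named loci with the highest Pearson correlation with IBP7 in log2(CPM + 1) over the 6 libraries were taken from 5498 loci with counts in all libraries and a mean of at least 10 CPM. They were IGDC4 (r = 0.997), a cell surface protein of the immunoglobulin superfamily, the tubulin acetyltransferase gene ATAT (0.990), the transposase-derived gene PGBD2 (0.990) and the serine carboxypeptidase gene RISC (0.990). IGDC4 had 28.5, 22.3 and 47.6 CPM in rhino 1, compared with 194, 83.8 and 187 CPM in rhino 2. A total of 35 loci had r above 0.95. All points share their library and its depth, so these values describe 6 libraries and carry no test.

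The remaining genes of the IGF axis were read from a list of 32 names, of which 31 matched and 14 were tested. None passed edgeR's adjusted threshold, 2 were higher (IGF1R and MMP2) and 1 lower (ADAM9) in rhino 2 at an unadjusted p under 0.05, against 6.42% of all tested loci higher and 6.48% lower, and 10 of the 14 log2 fold changes were positive, with a median of 0.46. DESeq2 called 3, which were IGF1R and MMP2 as higher and ADAM9 as lower, against 3.66% of all loci higher and 3.74% lower, and gave 2 axis genes no adjusted p. Limma-voom called 5 (ADA12, IGF1R, IRS2, MMP2 and STC1), all higher, against 7.24% of all loci. The ligand gene IGF1 had 0 counts in all libraries and IGF2 had 5 counts, all in rhino 1 replicate 1 (0.376 CPM). Neither has an opposite-strand model, so that library alone bears on them.

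IGF1R, the receptor that passes on the signal of both ligands, had 123, 75.8 and 78.0 CPM in rhino 1, compared with 373, 269 and 265 CPM in rhino 2. All libraries of rhino 2 were higher, with a log2 fold change of 1.79 (SE 0.29, edgeR adjusted p = 0.0536). It passed without rhino 1 replicate 1 (2.10, edgeR adjusted p = 0.0361) and in none of the other 5 fits that left out a library (edgeR adjusted p from 0.129 to 0.236). IGF1R also passed by DESeq2 (adjusted p = 6.4e-06) and limma-voom (adjusted p = 0.00895). By edgeR it passed with no filter (adjusted p = 0.0029), library totals (0.0499), any overlap (0.0458) and loci modelled on both strands (0.0295). It did not pass by edgeR with DESeq2 size factors (0.0542), a mean of at least 5 CPM (0.0723) or a replicate block (0.216). MPRI, the IGF-II clearance receptor gene IGF2R, had 514, 457 and 330 CPM in rhino 1, compared with 448, 294 and 291 CPM in rhino 2. These ranges overlapped (log2 fold change -0.24, edgeR adjusted p = 0.886). The name MPRI shares its assembled gene with another name, so its count is uncertain.

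Among proteases and their inhibitors, the pappalysin gene PAPP1, whose protein cuts IGFBP4, had 156 counts (11.7 CPM) in rhino 1 replicate 1 and 0 in the other 5 libraries, although it has opposite-strand models. PAPP2 was at 0 and has no opposite-strand model. STC1, a stanniocalcin gene whose protein blocks PAPP-A, had 3.76, 0 and 12.4 CPM in rhino 1, compared with 32.8, 15.6 and 35.2 CPM in rhino 2. The values of the animals did not overlap, but the counting intervals of the closest libraries, 7.86 to 19.6 and 8.73 to 27.99 CPM, did. The log2 fold change was 2.41 (edgeR adjusted p = 0.547), and 3.66 without rhino 1 replicate 3 (edgeR adjusted p = 0.463).

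MMP2, a gelatinase that can cut several IGF binding proteins, had 138, 379 and 175 CPM in rhino 1, compared with 961, 632 and 842 CPM in rhino 2 (log2 fold change 1.95, edgeR adjusted p = 0.0818). Again the libraries of rhino 2 were all higher. IRS2, an adaptor of the receptor, had 7.90, 35.7 and 6.90 CPM in rhino 1, compared with 93.8, 17.1 and 42.7 CPM in rhino 2, which overlapped (1.81, edgeR adjusted p = 0.493). That value was 1.01 without rhino 2 replicate 1, 2.82 without rhino 1 replicate 2 and 2.99 by limma-voom, where it passed (adjusted p = 0.0121). ADAM9, a metalloprotease gene named after its values were seen, was the axis gene without overlap in the other direction, as were 14.0% of all tested loci, at 46.0, 81.8 and 49.0 CPM in rhino 1, compared with 20.3, 8.53 and 18.5 CPM in rhino 2 (-1.76, edgeR adjusted p = 0.174).

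Of the other HTRA genes, which the naming rule does not cover, HTRA3 and HTRA4 had 0 counts, HTRA4 with no opposite-strand model, and the mitochondrial protease gene HTRA2 had 12.6, 0 and 13.8 CPM in rhino 1, compared with 15.7, 0 and 17.6 CPM in rhino 2. HTRA1 had counts in every library, whereas HTRA2 was at 0 in replicate 2 of both animals, the libraries with the fewest counts. For HTRA4 only rhino 1 replicate 1 bears on the level.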

How the data were processed

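RNA-seq of granulosa cells was deposited for 6 libraries. Total RNA was isolated with a PicoPure kit and libraries made with a NEBNext Ultra II kit, per the labels' protocols. Trimmomatic, HISAT2 and StringTie appear in the submitters' processing notes, with no version. Genome build and strand setting: not given in the sources used here. The authors deposited raw counts of reads, in whole numbers, per assembled transcript, or per gene for rhino 2 replicate 1, without normalization, per the file headers and the values. A deposited table gives scaffold positions and names.

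Counts were summed to 40656 genes. An unnamed gene covering at least 50% of the shorter exonic length on the opposite strand of another gene was joined to it (bedtools 2.31.1), which left 25906 loci. CPM used library totals. Wilson 95% intervals and the limit of 3 counts for a 0 cover counting error only, since reads carry no molecular identifiers.

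Rhino 2 was compared with rhino 1 in R 4.3.3, using edgeR 4.0.16 (TMM, filterByExpr, quasi-likelihood test, two-sided, Benjamini-Hochberg over all loci, threshold 0.05), after it was tested on simulated data. The simulation gave every locus the same spread and held no excess zeros, so it does not cover the zeros and uneven spread of these data. The SE is the absolute log2 fold change divided by the square root of F. Alternatives were DESeq2 size factors, library totals alone, no filter, a mean of at least 5 CPM, DESeq2 1.42.0, limma-voom (limma 3.58.1), a replicate block, genes as deposited, other rules for joining strands and each library left out. Nothing in the labels says that libraries of an animal are separate collections, so p-values measure the spread between libraries, which may be technical.

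The members, the lists and the joining of strands were chosen with earlier results of these data known. The text names all 8 members, the axis genes past the threshold or otherwise the 4 with the largest absolute log2 fold change, the ligands, receptors and pappalysins, and the 4 loci most like the most abundant member. Features of the axis outside that rule are said to be so.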

Additional observations from a re-analysis of the deposited data

Results flagged for a closer look

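An unnamed single-exon model lies 473 bases past the end of IBP5 on the same strand (scaffold 37, 21128638 to 21132446, 3809 bases), and is part of none of the loci compared above. It held 674 counts in rhino 1 replicate 1, or 50.7 CPM, against 101 counts of IBP5 in that library, and 0 counts in the other 5 libraries. Per kilobase this was 13.3 CPM, and 9.31 CPM for the named model of IBP5. It has no opposite-strand model, so those 5 libraries do not bear on it. It drew attention as signal in data that the comparisons do not use, above the limit of 0.226 CPM that a count of 0 allows there. Whether these reads belong to the IBP5 transcript was not tested.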

How the results depend on the processing

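Over all loci, 47 passed by edgeR. The count was 88 with library totals alone, 353 with no filter, 631 by DESeq2, 762 by limma-voom, 84 with strands joined at any overlap and 142 on loci modelled on both strands. It was 0 on the genes as deposited (239 at an unadjusted p under 0.05), where no member could be tested. With single libraries left out it ran from 0 to 49. Of 6 members tested 0 passed, but 1 did by DESeq2, 2 by limma-voom and 1 on loci modelled on both strands. With no filter 2 of 7 members passed, and in every leave-one-out fit 0 did. Of 14 axis genes tested 0 passed, but 1 did with library totals, 3 by DESeq2, 5 by limma-voom and 1 with any overlap. On loci modelled on both strands 1 axis gene passed, with no filter 2 of 18, and with single libraries left out 0 to 1. The IBP7 share, on average 66.9% over the 6 libraries, was 65.4% to 72.7% with single libraries left out. On the genes as deposited it was 36.1% over the 2 libraries with counts. Of these, rhino 2 replicate 3 had only 3 binding protein counts, all of IBP2. The cause of these shifts was not tested, apart from the fewer loci or libraries that a setting leaves.

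With the replicate number as a block, 0 loci passed (893 at an unadjusted p under 0.05), 0 members and 0 axis genes. Deviations of same-numbered libraries correlated at 0.211, 0.133 and 0.00577, and those of differently numbered libraries at -0.184 to 0.0222. The main fit did not pair the libraries by number, but these values do not exclude such a pairing. No member changed sign in any fit, with 76 values on the same side of the threshold and 6 calls gained, leaving out the 3 to which DESeq2 gave no adjusted p. IBP1 is limited by its single strand model rather than by depth, and IBP3 held at most 7 counts in a library. The zeros of IBP5 and IBP6 stand where up to 14.2 and 11.3 counts were predicted, in rhino 2 replicate 3 and rhino 2 replicate 1 respectively. Of loci predicted at 20 counts or more, 2.51% and 1.16% were at 0 in these libraries. That share was 9.23% in rhino 1 replicate 2 and 4.74% in rhino 2 replicate 2.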
